A study of Mus musculus with 6 samples.

Results

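The genes described here are the 9 transporters and enzymes by which neurons are usually assigned a fast transmitter, measured in purified mouse retinal ganglion cells (RGCs) at embryonic day 18 (E18) and postnatal day 5 (P5). They were taken by gene symbol as the genes of glutamate, GABA, glycine and acetylcholine identity, with earlier results of these data known. They make up 9 of the 24060 genes in the table. The vesicular glutamate transporters were Slc17a6 (VGLUT2), Slc17a7 (VGLUT1) and Slc17a8 (VGLUT3). The inhibitory genes were Slc32a1, Gad1, Gad2 and Slc6a9, and the cholinergic genes were Chat and Slc18a3. All 9 passed the expression filter of the test, which left 16449 genes.

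Both ages came from C57BL/6 mice with no further allele or treatment given in the labels. RGCs were taken from papain-dissociated retinas, which were first cleared of macrophages and then held on dishes coated with an antibody against CD90 (Thy1), a procedure called immunopanning. There were 3 samples at E18, numbered 1, 3 and 4, and 3 samples at P5, numbered 6, 8 and 9. In the count table, the numbers 2 and 5 stand beside 1 in the name of the E18 replicate 1 column, and what they mark is not given in the sources used here. The number of animals behind a sample is not given in the sources used here, and nothing states that samples came from separate litters, so p-values measure the spread between these samples. Between 81213639 and 114512853 reads per sample fell on genes. Values are CPM (reads scaled to a common library size) after TMM normalization, and a log2 fold change is E18 over P5, so that a negative value is a higher level at P5.

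A neuron releases the transmitter that its vesicles are loaded with. VGLUT proteins load glutamate, the protein of Slc32a1 (VGAT) loads GABA and glycine, and the protein of Slc18a3 (VAChT) loads acetylcholine, while GABA and acetylcholine must first be made by the enzymes of Gad1, Gad2 and Chat. RGCs are the output neurons of the retina and are glutamatergic. Among the retinal cells known for GABA, glycine or acetylcholine are the amacrine cells, of which the starburst cells release both acetylcholine and GABA.

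The sequences just upstream of annotated start sites are shown for the 4 genes that shared a pattern across the samples, Slc32a1, Gad1, Chat and Slc18a3. That of Gad2, the other GABA enzyme, is shown too. Gad2 had the order of the 4 genes over the E18 samples, but not over all 6 samples. The sequences were read from RefSeq (GRCm38.p6) on the strand of the gene, from up to 250 bases before the start. Bases that the annotation places in an exon of the same gene were left out. Capitals mark matches to 3 motifs searched on both strands. These were the core of RE1, the element bound by the repressor REST, as AGCACC and GGACAG with 2 bases between them, the AP-2 motif GCCNNNGGC, and the E-box CAGCTG. Matches of the AP-2 motif could overlap each other, as they did in Slc18a3.

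Gad2, plus strand, chr2:22622077-22622204: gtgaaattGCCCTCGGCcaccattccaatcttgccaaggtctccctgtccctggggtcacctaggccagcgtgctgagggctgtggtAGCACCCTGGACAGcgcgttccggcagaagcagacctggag
Gad1, plus strand, chr2:70561879-70562041: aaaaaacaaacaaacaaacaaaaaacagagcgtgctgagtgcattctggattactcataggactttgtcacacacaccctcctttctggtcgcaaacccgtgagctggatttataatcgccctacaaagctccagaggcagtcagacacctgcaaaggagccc
Slc32a1, plus strand, chr2:158610508-158610757: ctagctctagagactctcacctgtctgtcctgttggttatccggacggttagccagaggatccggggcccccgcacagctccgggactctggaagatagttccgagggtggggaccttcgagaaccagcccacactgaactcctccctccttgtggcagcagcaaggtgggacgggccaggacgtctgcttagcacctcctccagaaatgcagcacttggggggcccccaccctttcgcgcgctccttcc
Slc18a3, minus strand, chr14:32464851-32465100: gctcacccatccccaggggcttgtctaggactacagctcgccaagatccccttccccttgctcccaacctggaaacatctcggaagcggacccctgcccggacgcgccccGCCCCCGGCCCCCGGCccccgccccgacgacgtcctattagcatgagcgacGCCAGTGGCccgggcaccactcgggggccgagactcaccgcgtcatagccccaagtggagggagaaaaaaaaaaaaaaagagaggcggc
Chat, minus strand, chr14:32465990-32466159: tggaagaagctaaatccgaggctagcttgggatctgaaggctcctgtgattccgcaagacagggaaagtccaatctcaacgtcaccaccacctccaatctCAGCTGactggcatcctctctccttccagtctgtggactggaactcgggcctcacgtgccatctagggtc

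Of 32851 windows of 250 bases upstream of RefSeq starts, 15 (0.0457%) held the RE1 core, and the Gad2 window was among them, with the match from base -163 to base -150. The AP-2 motif stood in 13.7% of all windows. The Slc18a3 window held 3 matches, the nearest ending at base -81, and the Gad2 window also held 3 with the RE1 core counted, 1 of them in an annotated exon and not shown. The E-box stood in 13.0% of windows and, among the members, in that of Chat alone, from base -150 to base -145. No window of the other 6 members held a match. A match describes these letters only, and binding was not measured in these samples.

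Before the members, the cells were checked against marker genes. All 13 RGC markers passed the filter, and their summed level was 6177 to 7209 CPM at E18 and 6879 to 7890 CPM at P5. Without Nefl, the highest of them, the sums were 4504 to 5075 CPM at E18 and 4415 to 4517 CPM at P5. In the edgeR test given below, 3 of the 13 were higher at E18 and 4 lower, against 20.8% and 22.5% of all genes tested. Thy1, the antigen of the panning, was among the lower ones (log2 fold change -1.16, adjusted p = 0.00197 by edgeR). Isl1 was among the higher ones (1.10, adjusted p = 0.000857 by edgeR). Markers of amacrine cells summed to 137, 209 and 65.0 CPM in E18 replicates 1, 3 and 4, and to 182 to 185 CPM at P5. Those of horizontal cells summed to 107, 124 and 83.2 CPM in E18 replicates 1, 3 and 4, and to 95.9 to 104 CPM at P5. The starburst markers summed to 504, 652 and 466 CPM at E18 and to 180 to 296 CPM at P5, but Rnd3 alone made up most of this. Without Rnd3 the starburst sums were 103, 156 and 30.7 CPM in E18 replicates 1, 3 and 4 and 28.6 to 34.7 CPM at P5. Dividing-cell genes summed to 245 and 65.2 CPM in E18 replicates 1 and 3 and lay between 14.4 and 26.0 CPM in the other 4 samples. Markers of retinal progenitors summed to 110, 52.5 and 29.4 CPM in E18 replicates 1, 3 and 4 and to 19.5 to 26.8 CPM at P5. Those of endothelial cells and pericytes summed to 71.7, 64.3 and 16.2 CPM at E18 and to 14.2 to 17.6 CPM at P5, and without Kdr, which carried them at E18, to 1.39 to 2.17 CPM and 6.26 to 9.37 CPM. Those of Muller glia and astrocytes summed to 508, 456 and 417 CPM in E18 replicates 1, 3 and 4 and to 430 to 470 CPM at P5. Glul made up most of this, and without it the sums were 182, 133 and 104 CPM at E18 and 179 to 212 CPM at P5. Oligodendrocyte markers summed to 71.7 to 74.3 CPM at E18 and to 37.5 to 61.5 CPM at P5. Microglia markers stayed between 1.68 and 3.04 CPM. No marker of these lists was at 0 in every sample. E18 replicates 1 and 3 therefore held more RNA of some amacrine, starburst, progenitor and dividing-cell genes and of Kdr than E18 replicate 4. For this reason the members are given by sample, with main changes on leaving out a sample. Most other genes are not given with samples left out. In bulk RNA, fewer cells of a type and less RNA per cell cannot be told apart.

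Of the 9 members, 6 passed the test (edgeR's quasi-likelihood test, Benjamini-Hochberg adjustment over all genes, threshold 0.05). Of all genes tested, 43.4% passed. The 3 vesicular glutamate transporters were lower at E18, against a background of 22.5% of all genes in that direction. Slc32a1, Chat and Slc18a3 were higher at E18, against 20.8% of all genes. Gad1, Gad2 and Slc6a9 did not pass. The values of the ages did not overlap in 4 of the 9 members, whereas 56.1% of all genes did not overlap. The median log2 fold change was -0.21 over the members and 0.00 over all genes tested.

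**Figure D1:**
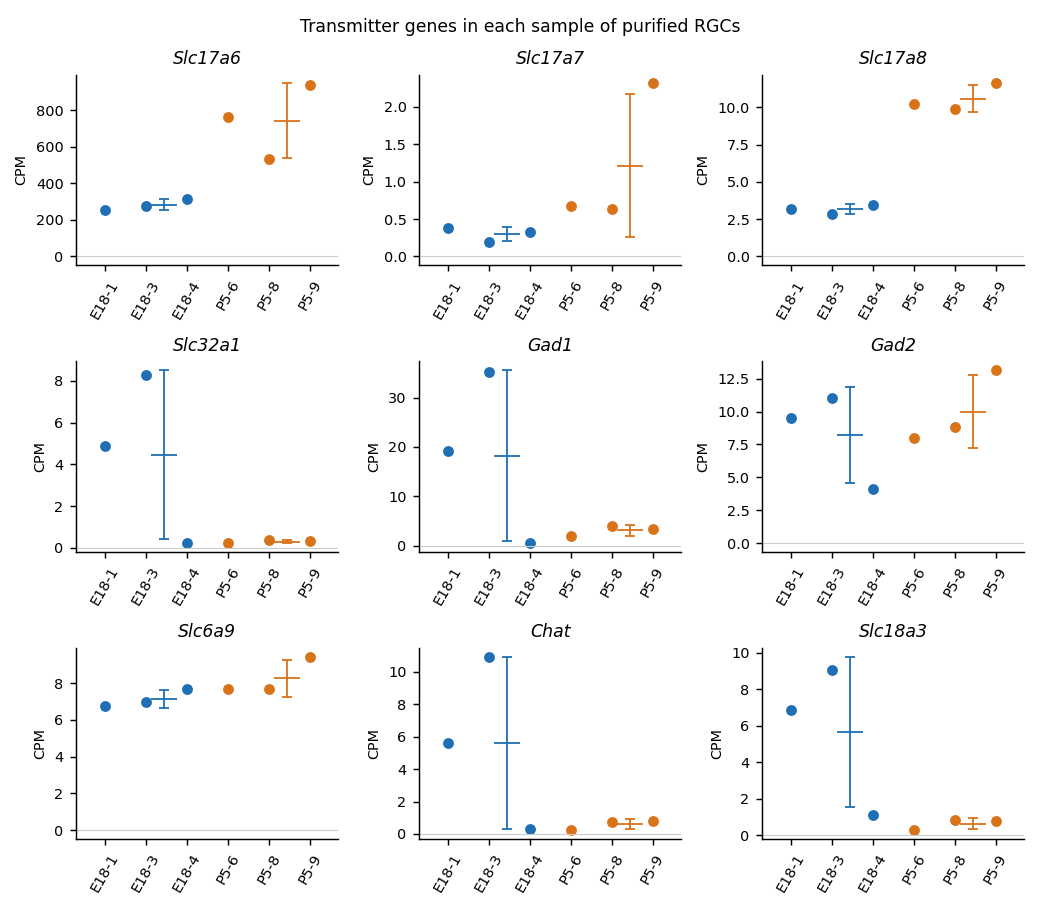
CPM of each of the 9 genes (vertical axes, linear, from 0 upwards) in E18 replicates 1, 3 and 4 (blue) and P5 replicates 6, 8 and 9 (orange), with the mean and SD of each age (n = 3) as a dash and bar. The glutamate transporters lay higher in every P5 sample than in any E18 sample, whereas Slc32a1, Gad1 and Chat were high in E18 replicates 1 and 3 and low in the other 4 samples.

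Slc17a6, on chromosome 7 of mm10 (51622006 to 51671119, plus strand), encodes the transporter by which RGCs load glutamate. It had 256, 275 and 316 CPM in E18 replicates 1, 3 and 4, and 762, 531 and 939 CPM in P5 replicates 6, 8 and 9. Every P5 sample lay above every E18 sample, and the P5 samples were the more spread. With means of 282 ± 30.7 CPM (E18) and 744 ± 205 CPM (P5; SD, n = 3 each), the level was 2.63-fold higher at P5 (log2 fold change -1.40, SE 0.190, adjusted p = 0.000931 by edgeR). The call was kept in 13 of 13 alternatives, with values of -1.61 to -1.20 when a sample was left out.

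Slc17a8, on chromosome 10 (89574020 to 89621253, minus strand), encodes a transporter known, among other cells, from a few amacrine cells and from cochlear hair cells. The E18 replicates 1, 3 and 4 had 3.19, 2.87 and 3.48 CPM, and the P5 replicates 6, 8 and 9 had 10.3, 9.89 and 11.6 CPM. The ages were far apart and the samples of each age close together, at 3.18 ± 0.304 CPM (E18) and 10.6 ± 0.910 CPM (P5; SD, n = 3 each). Its level was 3.33-fold higher at P5 (log2 fold change -1.73, SE 0.154, adjusted p = 0.000206 by edgeR), and it too was called in 13 of 13 alternatives.

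Slc17a7, also on chromosome 7 (45163949 to 45176142, plus strand), is the transporter of most cortical neurons and, in the retina, of photoreceptors and bipolar cells. It rested on 31, 22 and 29 reads at E18 and on 60, 63 and 218 reads at P5, which is 0.374, 0.196 and 0.320 CPM against 0.677, 0.640 and 2.32 CPM. All P5 samples were above all E18 samples, but P5 replicate 9 stood apart from the others. Its log2 fold change was -2.04 (SE 0.550, adjusted p = 0.0174 by edgeR). Without P5 replicate 9 it was -1.16, and without E18 replicate 3 the call was lost (-1.80, adjusted p = 0.0671 by edgeR). Photoreceptor markers summed to 4.27 to 12.6 CPM over the 6 samples, with the highest value in E18 replicate 1, and bipolar markers to 584 to 671 CPM at E18 and 322 to 393 CPM at P5. Most of the bipolar sum was Isl1, which is also an RGC marker, and without it the direction was the opposite, with 54.0 to 62.4 CPM at E18 and 83.6 to 115.1 CPM at P5. Their part in the Slc17a7 values was not tested.

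To set the 3 transporters beside each other, levels were divided by exon length. Slc17a6 made up 97.8% to 98.8% of the reads per kilobase of the family in every sample. Slc17a8 held 1.41%, 1.18% and 1.24% at E18 and 1.52%, 2.09% and 1.39% at P5. Slc17a7 held 0.144%, 0.0704% and 0.1001% at E18 and 0.0875%, 0.118% and 0.243% at P5, so that its shares overlapped between the ages. The mean share of Slc17a7 was 0.105 ± 0.0370% (E18) and 0.150 ± 0.0825% (P5; SD, n = 3 each), a difference of -0.0447 percentage points (exact permutation test, two-sided, p = 0.6, smallest possible 0.1). That difference turned to 0.00207 without P5 replicate 9.

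Slc32a1, on chromosome 2 (158610767 to 158615748, plus strand), encodes the vesicular transporter of GABA and glycine. It had 4.87, 8.30 and 0.221 CPM in E18 replicates 1, 3 and 4, and 0.226, 0.356 and 0.319 CPM in P5 replicates 6, 8 and 9. In reads these were 404, 931 and 20 at E18 and 20, 35 and 30 at P5. E18 replicate 4 lay below every P5 sample, so the ages overlapped although the gene was called. The log2 fold change was 3.89 (SE 0.990, adjusted p = 0.0136 by edgeR), from means of 4.46 ± 4.06 CPM (E18) and 0.300 ± 0.0670 CPM (P5; SD, n = 3 each). Without E18 replicate 3 it was 3.08, and without P5 replicate 6 the call was lost (3.71, adjusted p = 0.0681 by edgeR). An unstranded count could hold reads of Gm14205, a gene on the other strand that covers 697 bases (24.9%) of its exons. Whether the counting used strand is not given in the sources used here.

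Gad1, on chromosome 2 (70553072 to 70602014, plus strand), encodes GAD67, the enzyme that makes most of a neuron's GABA. It had 19.2, 35.1 and 0.486 CPM in E18 replicates 1, 3 and 4, and 1.86, 3.91 and 3.47 CPM in P5 replicates 6, 8 and 9. E18 replicate 4, with 44 reads, was the lowest of the 6 samples, and E18 replicate 3, with 3935 reads, the highest. Means of 18.2 ± 17.3 CPM (E18) and 3.08 ± 1.08 CPM (P5; SD, n = 3 each) gave a log2 fold change of 2.57 that did not pass (SE 1.02, adjusted p = 0.0709 by edgeR). It passed in 4 of 13 alternatives, and adjusted p ranged from 0.000767 to 0.245 over them. The lowest of these was without E18 replicate 4 (log2 fold change 3.14, SE 0.341).

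Gad2, on chromosome 2 (22622205 to 22693874, plus strand), encodes GAD65, the form of the enzyme held at synaptic terminals. Its levels were 9.48, 11.1 and 4.13 CPM in E18 replicates 1, 3 and 4, and 8.01, 8.81 and 13.2 CPM in P5 replicates 6, 8 and 9. E18 replicate 4 was again the lowest sample, but by much less than for Gad1. Between the ages the log2 fold change was -0.28 (SE 0.340, adjusted p = 0.531 by edgeR) and had the other sign, 0.04, without E18 replicate 4.

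The ratio of the GAD genes within a sample does not depend on library scaling. On the log2 scale of reads per kilobase, Gad2 over Gad1 was -0.64, -1.29 and 3.47 in E18 replicates 1, 3 and 4, and 2.48, 1.55 and 2.30 in P5 replicates 6, 8 and 9. Gad1 thus exceeded Gad2 in E18 replicates 1 and 3, and Gad2 exceeded Gad1 in the other 4 samples, most of all in E18 replicate 4. The difference of the means was -1.60 (exact permutation test, two-sided, p = 0.4), and -3.07 without E18 replicate 4 (p = 0.1 in the same exact test, the smallest it can give).

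Slc6a9, on chromosome 4 (117834506 to 117875198, plus strand), encodes GlyT1, which takes up glycine and marks glycinergic amacrine cells and glia. It was the steadiest member, with 6.74, 6.95 and 7.68 CPM in E18 replicates 1, 3 and 4, and 7.69, 7.67 and 9.42 CPM in P5 replicates 6, 8 and 9. The ages met at 7.7 CPM. Its log2 fold change was -0.21 (SE 0.148, adjusted p = 0.268 by edgeR), and none of 13 alternatives called it, with adjusted p of 0.132 to 0.596. On the opposite strand, Ccdc24 covers 1429 bases (27.8%) of its exons, and Ccdc24 itself was higher at E18 (log2 fold change 1.02, SE 0.183, adjusted p = 0.00299 by edgeR). Reads of the pair cannot be told apart if the counting ignored strand.

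Chat and Slc18a3 lie at a single locus on chromosome 14, where Slc18a3 (32462438 to 32464850, minus strand) is 1 exon inside an intron of Chat (32408203 to 32465989, minus strand), and no exon of either overlaps the other. Chat, the enzyme that makes acetylcholine, had 5.59, 10.9 and 0.287 CPM in E18 replicates 1, 3 and 4, and 0.237, 0.762 and 0.797 CPM in P5 replicates 6, 8 and 9. E18 replicate 4 lay inside the range of P5. The log2 fold change was 3.22 (SE 1.00, adjusted p = 0.0303 by edgeR), but the call was not kept on leaving out some samples. It was lost without E18 replicate 3 (2.29, adjusted p = 0.108), P5 replicate 6 (2.83, 0.117), P5 replicate 8 (3.41, 0.0655) or P5 replicate 9 (3.47, 0.0717), all by edgeR. Without P5 replicate 8 or 9 the log2 fold change was no smaller, while its SE was larger (1.32 and 1.27).

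Slc18a3, the vesicular acetylcholine transporter, had 6.84, 9.05 and 1.10 CPM in E18 replicates 1, 3 and 4, and 0.282, 0.823 and 0.776 CPM in P5 replicates 6, 8 and 9. E18 replicate 4 was again far below the other E18 samples, but still above all of P5, with 100 reads against 25 to 81. The log2 fold change was 3.17 (SE 0.713, adjusted p = 0.00799 by edgeR), and it was called in 13 of 13 alternatives, with values of 2.66 to 3.66 when a sample was left out.

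**Figure D2:**
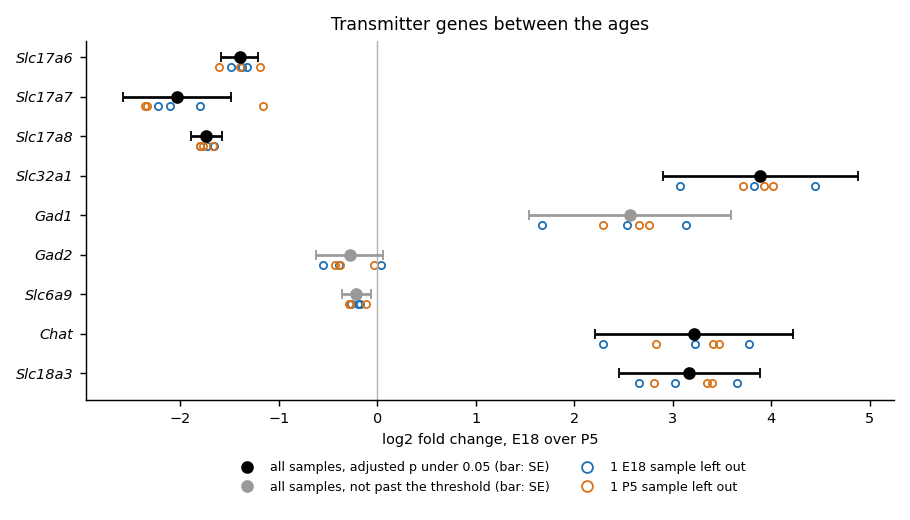
log2 fold change of E18 over P5 for each gene (horizontal axis), with its SE as a bar, in black where it passed the threshold and in grey where it did not. Open circles are the values with 1 sample left out, blue for an E18 sample and orange for a P5 sample. The bars of Slc32a1, Gad1 and Chat are the widest, and only Gad2 crosses 0 when a sample is left out.

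Across samples, Slc32a1, Gad1, Chat and Slc18a3 had nearly the same order of levels. E18 replicate 3 was the highest of the 6 samples for each of them, and E18 replicate 1 was the next. Relative to E18 replicate 4, E18 replicates 1 and 3 were 22.0 and 37.6 times as high for Slc32a1 and 39.4 and 72.2 times for Gad1. The same ratios were 19.5 and 38.0 for Chat, 6.19 and 8.20 for Slc18a3 and 2.29 and 2.68 for Gad2. They were 0.809 and 0.872 for Slc17a6, 0.918 and 0.825 for Slc17a8 and 0.878 and 0.905 for Slc6a9. For Slc17a7, with 22 to 31 reads, they were 1.17 and 0.613.

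Some transcription factors of amacrine and starburst cells, picked after their values were seen, had the same order over the E18 samples. Tfap2b, an AP-2 factor of amacrine cells, had 47.5, 119 and 1.62 CPM in E18 replicates 1, 3 and 4 and 1.02 to 1.55 CPM at P5. Sox2, which starburst cells keep after birth, had 45.7, 69.3 and 0.950 CPM at E18 and 0.790 to 1.48 CPM at P5. Fezf1, another starburst factor, had 2.92, 5.58 and 0.0442 CPM at E18 and 0.0226 to 0.152 CPM at P5. In each, E18 replicate 3 was the highest and E18 replicate 4 lay within the range of P5 or, for Tfap2b, just above it. Dividing-cell genes had another order, with Mki67 at 68.7, 16.2 and 2.84 CPM in E18 replicates 1, 3 and 4.

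The other markers of the same lists did not all share this order. Of the 10 amacrine markers 8 were tested, with 3 higher at E18 and 4 lower, the latter being the transcription factors Meis2, Neurod2 and Neurod6 and the peptide gene Tac1, and 5 of the 6 starburst markers were tested, with 4 higher and none lower. Of all genes tested, 20.8% were higher at E18 and 22.5% lower. The starburst count fell to 2 without P5 replicate 6. Slc5a7, a starburst marker that is described with the cholinergic genes, was as high in E18 replicate 4 as in the others. The part of other cell types in the values of Slc32a1, Gad1, Chat and Slc18a3 was not tested.

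**Figure D3:**
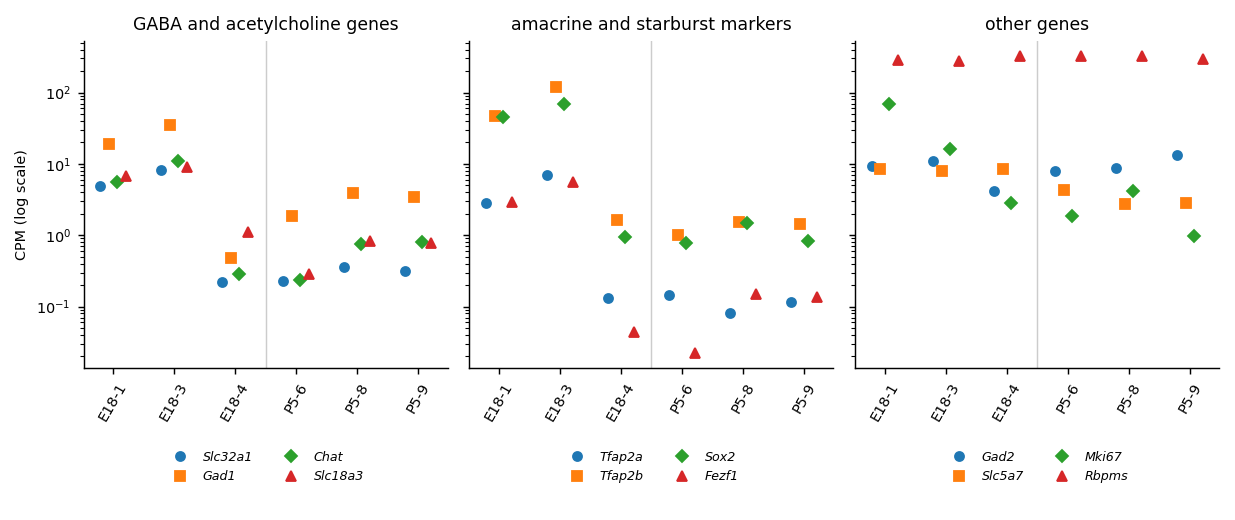
CPM on a log scale in each sample for 4 GABA and acetylcholine genes (left), 4 amacrine and starburst transcription factors (middle) and Gad2, Slc5a7, Mki67 and Rbpms (right). The left and middle panels show high values in E18 replicates 1 and 3 and low values in E18 replicate 4 and P5. Rbpms, 1 of the 13 RGC markers, lies between 276 and 329 CPM over all 6 samples. It does not stand for the whole list, since Isl1 falls from E18 to P5 (log2 fold change 1.10) and Thy1 rises (-1.16).

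The inhibitory vesicular transporter was also set against the glutamatergic one within each sample. The log2 ratio of Slc32a1 to Slc17a6 per kilobase was -4.77, -4.10 and -9.53 in E18 replicates 1, 3 and 4, and -10.77, -9.59 and -10.57 in P5 replicates 6, 8 and 9. E18 replicate 4 was closer to P5 replicate 8 than to either other E18 sample, though just above it. The means differed by 4.18 (exact permutation test, two-sided, p = 0.1, the smallest it can give), and by 3.16 to 5.88 with a sample left out. In every sample Slc17a6 was the larger.

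Per length, Slc17a6 was far above the other members at both ages, with means of 52.3 reads per kilobase (scaled as CPM) at E18 and 138 at P5. At E18 it was followed by Gad1 (2.39), Slc18a3 (2.35), Slc32a1 (1.60), Gad2 (1.40), Slc6a9 (1.39), Chat (1.19), Slc17a8 (0.674) and Slc17a7 (0.0550). Of these neighbours, only Slc17a6 with Gad1 and Slc17a8 with Slc17a7 did not overlap between samples. At P5 the order after Slc17a6 was Slc17a8 (2.24), Gad2 (1.70), Slc6a9 (1.61), Gad1 (0.403), Slc18a3 (0.260), Slc17a7 (0.225), Chat (0.127) and Slc32a1 (0.107). There, the samples of Slc17a6 did not overlap those of Slc17a8, nor those of Slc6a9 with Gad1, and the other neighbours did. Slc17a8 stood at rank 8 of 9 at E18 and at rank 2 at P5. These orders rest on exon lengths merged over the transcripts of a gene and were not repeated with other lengths.

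**Figure D4:**
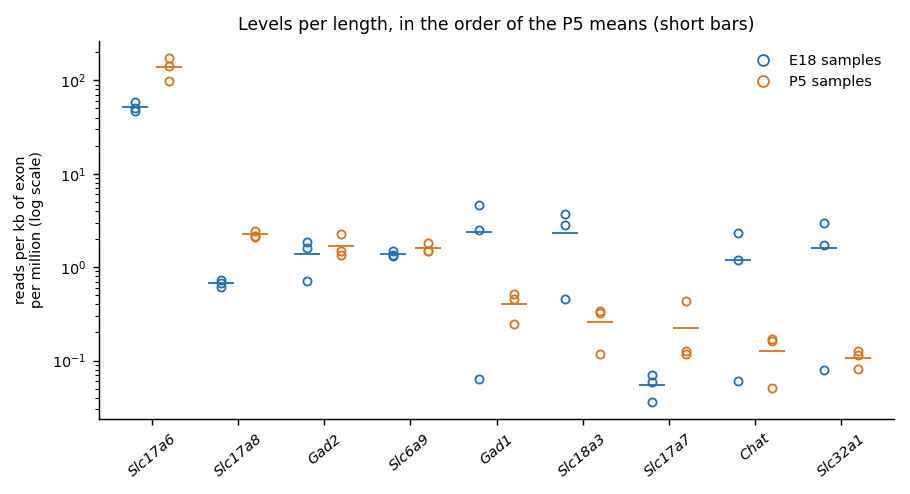
Reads per kilobase of exon, scaled as CPM (log scale), of the 9 genes, ordered by their P5 mean, with each E18 sample in blue, each P5 sample in orange and the means as short bars. Slc17a6 lies above all others at both ages, and the E18 samples of Gad1, Slc18a3, Chat and Slc32a1 spread widely, with E18 replicate 4 the lowest.

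Likeness between genes was measured as the root mean square difference of centred log2 CPM over the 6 samples, and is a description, since samples of an age move together. Among the members the closest pairs were Slc17a6 with Slc17a8 (0.260) and Slc32a1 with Chat (0.386), and the pair of GAD genes was at 1.65. Outside the members, among genes of at least 10 CPM, those closest to Slc17a6 were Sorl1 (0.0571), Tmem117 (0.0587) and Chrna6 (0.0625). Chrna6, a nicotinic receptor subunit, had 238, 236 and 308 CPM in E18 replicates 1, 3 and 4 and 735, 497 and 845 CPM in P5 replicates 6, 8 and 9. The closest to Gad1 were Sox2ot (0.610), the long transcript that spans Sox2, and Tgfb3 (0.644), and the closest to Gad2 were Fndc3b (0.245), Ptprg (0.246) and Plch1 (0.256).

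The genes that supply, take up and break down the same transmitters were then counted in fixed lists. For these counts the background is all genes tested, of which 20.8% were higher at E18 and 22.5% lower. Their median log2 fold change was 0.00. In the glutamate list, 13 of 14 genes were tested, with 4 higher at E18 and 7 lower and a median log2 fold change of -0.25. The counts were 2 higher and 5 lower without E18 replicate 3, and 3 and 4 without E18 replicate 1. Slc1a1, a neuronal glutamate uptake carrier, had the largest difference among the lower genes (log2 fold change -1.21, adjusted p = 0.000232), and Got1, an aminotransferase, was at -0.94 (0.00133). Among the genes that passed, the largest rises at E18 were Slc38a2, which carries glutamine (1.09, adjusted p = 0.00183), and Slc1a2, the carrier best known from astrocytes and bipolar terminals (0.58, 0.00787), all by edgeR. Slc1a3, a glial carrier, did not pass (2.19, adjusted p = 0.0946 by edgeR), with 16.2, 2.80 and 0.475 CPM in E18 replicates 1, 3 and 4 and 1.11 to 1.78 CPM at P5. Without E18 replicate 1 its log2 fold change was 0.22.

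All 6 genes of GABA uptake and breakdown were tested, and 5 were lower at E18 and none higher, with a median of -1.01. Abat, which breaks GABA down, had 95.7 ± 6.15 CPM (E18) and 205 ± 30.7 CPM (P5; SD, n = 3 each) and was lower at E18 (log2 fold change -1.10, SE 0.119, adjusted p = 0.000396 by edgeR). The weakly expressed carrier Slc6a13 was at -1.27 (adjusted p = 0.0103 by edgeR). Slc6a12 did not pass (-1.48, adjusted p = 0.0666 by edgeR).

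In the glycine list, 7 of 8 genes were tested, with 5 higher at E18, 1 lower and a median of 0.69. Gldc, of the glycine cleavage system, had the largest difference (log2 fold change 2.81, adjusted p = 0.0101 by edgeR), with 22.2, 7.28 and 3.08 CPM in E18 replicates 1, 3 and 4 and 0.808 to 2.01 CPM at P5. It was 1.76 without E18 replicate 1, the sample highest in dividing-cell genes. Shmt1, which makes glycine from serine, was at 1.08 (adjusted p = 0.00604 by edgeR). Gcsh, another part of the cleavage system, was lower at E18 (-0.85, adjusted p = 0.00162 by edgeR). Slc6a5 (GlyT2), the carrier of neurons that release glycine elsewhere in the nervous system, was not tested, with 0.0110 to 0.401 CPM over the samples.

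In the acetylcholine list, all 7 genes were tested, with 1 higher at E18, 3 lower and a median of -0.51. The gene that was higher was Slc5a7, the choline carrier of cholinergic terminals, with 8.55, 7.92 and 8.44 CPM in E18 replicates 1, 3 and 4 and 4.33, 2.71 and 2.84 CPM in P5 replicates 6, 8 and 9. Its E18 samples were close together, whereas those of Chat and Slc18a3 were not. The log2 fold change of Slc5a7 was 1.33 (SE 0.208, adjusted p = 0.00162 by edgeR), and it was called in 13 of 13 alternatives. Colq, which anchors acetylcholinesterase, had the largest fall (-4.60, adjusted p = 0.000625 by edgeR) but rested on 1 to 4 reads per sample at E18 and 43 to 105 at P5. Bche, the second enzyme that splits acetylcholine, was at -1.24 (adjusted p = 0.00510 by edgeR).

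**Figure D5:**
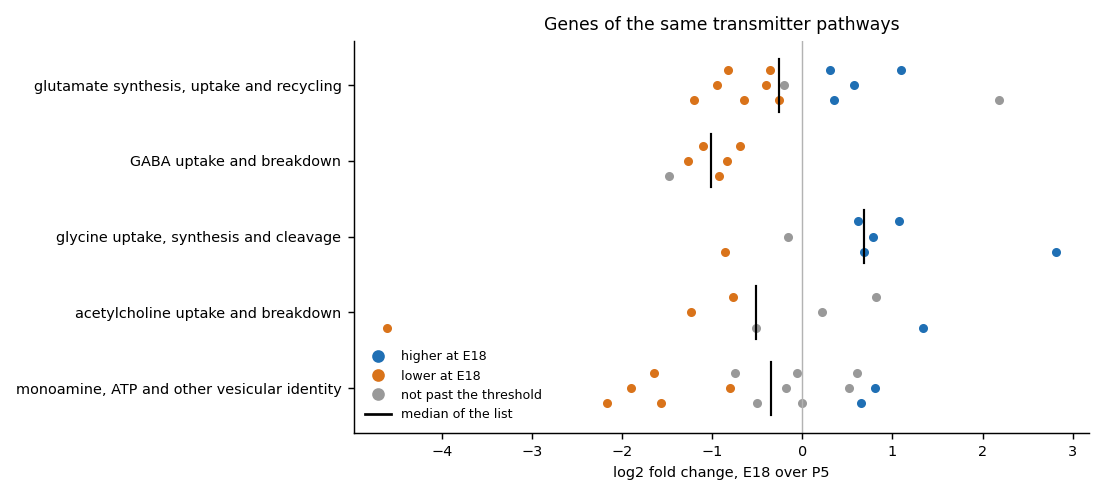
log2 fold change of E18 over P5 for each tested gene of 5 pathway lists, blue where higher at E18, orange where lower and grey where the threshold was not passed, with the median of each list as a black line. All GABA uptake and breakdown genes lie below 0 and the median of the glycine list lies above it.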

How the data were processed

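RNA was sequenced from 3 E18 and 3 P5 samples of immunopanned RGCs. Raw counts per gene and sample were deposited by the authors, who had mapped paired reads to mm10 with STAR and assigned them to RefSeq genes with HT-seq. The deposited normalized counts, a signal scaled by the authors, were not used, nor were the columns of the authors' comparison, which hold log2 fold changes, p-values with false discovery rates and an expression score. The labels name polyA RNA and the protocol ribosomal depletion.

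The quasi-likelihood test of edgeR (version 4.0.16, R 4.3.3) was run on these counts with TMM factors, after the tool's expression filter (16449 of 24060 genes, threshold 0.05 after Benjamini-Hochberg adjustment, two-sided). The SE of a log2 fold change was taken as the absolute log2 fold change divided by the square root of the F statistic of this test. The scripts were tested on simulated data. Exon lengths and coordinates come from GENCODE M21 on mm10, and upstream sequences from RefSeq. Likeness added 0.1 CPM before the logarithm. At these depths the spread between samples, not counting, sets the precision, except for genes with few reads, such as Slc17a7.

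The members and lists were chosen with earlier results of these data known. Named were all members, the genes with the 2 largest rises and 2 largest falls past the threshold in each list, Slc5a7, Slc6a4 and Slc6a5, and the 3 genes most like Slc17a6, Gad1 and Gad2. The third gene for Gad1 and some single genes of the lists are not reported here. Ccdc24, Slc1a3, Slc6a12 and the cell type markers that are named were named after their values were seen. As alternatives, edgeR's exact test, its likelihood ratio test (chosen after seeing the data), DESeq2 1.42.0, DESeq2 size factors, upper-quartile normalization, no filter, at least 1 CPM in 3 samples and the omission of each sample were run. Other lengths were run for the share of Slc17a7 and the log2 ratios only. A length cancels in the difference of a log2 ratio between the ages, so these lengths could change only the share. DESeq2 leaves some adjusted p-values undefined, and these were not counted.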

Additional observations from a re-analysis of the deposited data

How the results depend on the processing

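The calls of Slc17a6, Slc17a8 and Slc18a3 were kept under every alternative run, and those of Slc17a7, Slc32a1 and Chat were kept under every full-sample test that included the gene. With at least 1 CPM in 3 samples required, Slc17a7, Slc32a1 and Chat were no longer tested. Of the other members 3 passed, 1 of them higher at E18, beside 6331 of all 13447 genes tested. Without 1 sample, 4 to 7 members passed, 1 to 4 of them higher at E18 and 2 to 3 lower. The 1 higher call was without P5 replicate 6, where Slc18a3 remained. Of the 16683 to 16802 genes tested without 1 sample, 4575 to 8796 passed, 2137 to 4135 of them higher and 2438 to 4661 lower. The lowest counts were without E18 replicate 3. With all samples the counts were 7135, 3426 and 3709 of 16449 genes. The part of the smaller sample number in this was not separated, and the cause was not tested. Gad1 passed with edgeR's exact test (adjusted p = 0.0276), its likelihood ratio test (0.0235), without the filter (0.0372) and without E18 replicate 4. The log2 fold change of Gad2 ranged from -0.55 to 0.04 with a sample left out, the positive value being 0.0407 without E18 replicate 4. The difference in the share of Slc17a7 ranged from -0.0757 to 0.00207 with a sample left out, the positive value being without P5 replicate 9, and that of the log2 ratio of Gad2 to Gad1 from -3.07 to -0.70. No other scaling changed a direction or a call of a member. No paired analysis was possible because the ages share no replicate number. With 3 samples an age, an exact test cannot go below 0.1, and the level of Slc17a7 rests on as few as 22 reads.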

Other observations

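Genes of monoamine identity and other vesicle proteins were counted as a further list. Of its 15 genes 14 were tested, with 2 higher at E18, 5 lower and a median log2 fold change of -0.34. The background over all genes tested was again 20.8% higher and 22.5% lower, with a median of 0.00. Slc18a2, the vesicular monoamine transporter VMAT2, had 357, 390 and 449 CPM in E18 replicates 1, 3 and 4 and 325, 243 and 192 CPM in P5 replicates 6, 8 and 9. All E18 samples were above all P5 samples (log2 fold change 0.65, SE 0.180, adjusted p = 0.0185 by edgeR), although the call was lost without E18 replicate 4 (adjusted p = 0.0533 by edgeR). Its relative Slc18a1 was also higher at E18, at 0.80 (adjusted p = 0.0151 by edgeR), and lost its call without E18 replicate 1 or 3. Slc6a4, the serotonin carrier that some young RGCs are known to use, had 20.3 ± 1.87 CPM at E18 and 20.3 ± 5.42 CPM at P5 (SD, n = 3 each), and the sign of its fold change turned in 4 of 13 alternatives.

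The enzymes that make serotonin and dopamine were low at both ages. Tph2, the neuronal enzyme of serotonin synthesis, was lower at E18, with 0.687 ± 0.0659 CPM against 3.10 ± 0.779 CPM at P5 (SD, n = 3 each; log2 fold change -2.17, adjusted p = 0.000573 by edgeR). Sv2b, a synaptic vesicle protein, fell by 1.91 on the log2 scale toward E18 (adjusted p = 0.000366 by edgeR), from 136 ± 38.8 CPM at P5 to 36.4 ± 4.54 CPM (SD, n = 3 each).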
